A study of Mus musculus with 6 samples.

Results

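Guidance genes encode the secreted and membrane-bound cues, and the receptors for them, that steer growing axons, migrating cells and sprouting vessels. They were taken here as the genes whose symbol starts as a semaphorin, plexin, neuropilin, Eph receptor, ephrin, Slit, Robo, netrin, Unc5, Dcc or FLRT gene. The rule found 61 genes among the 20624 genes analysed, and no symbol was repeated. All 61 were kept, without a filter on low values. The samples were RNA of mDCT15, a line of mouse kidney cells labelled as distal convoluted tubule, with 3 samples labelled *Pkd1*-/- and 3 labelled wild type. The *Pkd1*-/- cells were made by CRISPR-Cas9 editing, and the genotype field of their labels calls them knockdown. Both genotypes were grown in the same serum-supplemented medium, and the labels name no treatment. The sources used here do not say whether the edited cells were 1 clone.

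The measure was the authors' mean normalized count, a single value per gene averaged over all 6 samples after division by the size factors of the libraries. It pools both genotypes, so no difference between *Pkd1*-/- and wild type cells is described, and a level can come from 1 genotype more than from the other. The spread between replicates and the depth of each sample are unknown, and no value carries an error. Levels of different genes are compared as counts per kilobase, after division by the summed length of all annotated exons of a gene. These exons come from a different annotation release than the one on which the authors counted reads. Ranks among all genes and the shares above a limit use the undivided mean and are said to do so. Over all genes the mean normalized counts added up to 16746088, of which 8.08% lay in *Gm26917* and *Gm42418*. *Pkd1* itself had a mean normalized count of 3175, which cannot show the state of the edited gene in either group.

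In kidney and other epithelia these families act at cell contacts as well as in innervation and vessel growth. Semaphorins signal through plexins, and most secreted class 3 semaphorins need a neuropilin as co-receptor. Ephrins are anchored in the membrane and bind Eph receptor tyrosine kinases on neighbouring cells, with signals passing into both cells. Slits bind Robo receptors, netrins bind Dcc and Unc5 receptors, and FLRT proteins bind Unc5 receptors and latrophilins.

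The labelled cell type was only partly visible in its markers. Of 18 listed genes of the distal convoluted tubule 12 were analysed, and 10 of them had a mean normalized count of at least 10, among them the kinase gene *Wnk1* (8468) and the potassium channel gene *Kcnj16* (428). The magnesium channel gene *Trpm6* was low, at 29.6. *Slc12a3*, the thiazide-sensitive cotransporter that defines the segment, *Pvalb* and *Calb1* had no value here. Of 7 general epithelial markers 3 were analysed and 2 reached a mean of 10, while *Cdh1*, *Krt18*, *Krt19* and *Cldn7* had no value. The kidney cadherin gene *Cdh16* (4680) and the mesenchymal filament gene *Vim* (17450) were high, while the keratin gene *Krt8* stood at 0.980. Of the 4 endothelial markers 2 were analysed, and 0 of them reached a mean of 10. Of 4 neuronal markers 3 were analysed and 2 reached a mean of 10, *Tubb3* (432) and *Syt1* (52.0). All 5 fibroblast markers were analysed and 2 reached it, *Vim* and *Col1a1* (201), as did 1 of 2 leukocyte markers, *Cd68* (41.9). Of 3 collecting duct markers 1 was analysed, and it did not reach a mean of 10. The 2 podocyte markers were not analysed. The endocytic receptor gene *Lrp2*, a marker of the proximal tubule, had a mean of 8826, whereas the phosphate transporter gene *Slc34a1* of the same segment had one of 2.04. Markers without a value, *Slc12a3* among them, may have had too few reads for the authors' minimum count, which was not tested. The markers analysed here do not settle the segment, and only a few bear on the epithelial type.

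Most of the guidance genes analysed were present in these cells, though the authors' minimum count can have left out others with few reads. By the undivided mean, 50 of the 61 genes (82.0%) had a normalized count of at least 10, against 66.5% of all genes, and 41 (67.2%) had one of at least 100, against 50.3% of all genes. A mean of at least 1000 was reached by 18 of them (29.5%), against 20.9% of all genes. The 61 guidance genes are all protein-coding, while the shares of all genes were not limited to protein-coding genes. Per kilobase, their median was 53.9, against 36.3 for the 18939 ranked genes, which have an annotated length and a mean not below 1. The median guidance gene stood at percentile 56.4 of these genes. That place turned to below the middle, to percentile 36.6, with coding length as the divisor. This divisor also limited the ranking to genes with a coding sequence, and the effects of length and ranked set were not separated. With only genes of at least 10 counts ranked, the place was 39.7. All 61 members were still placed on that scale, including those under 10. These unlike limits lower the value, so it is not read as a place below the middle. The members ranged from percentile 0.0660 for *Dcc* to percentile 99.1 for *Plxnb2*, 5 of them lay above percentile 90, and 15 lay below percentile 25. These shares are descriptions, since the pooled mean allows no test.

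**Figure D1:**
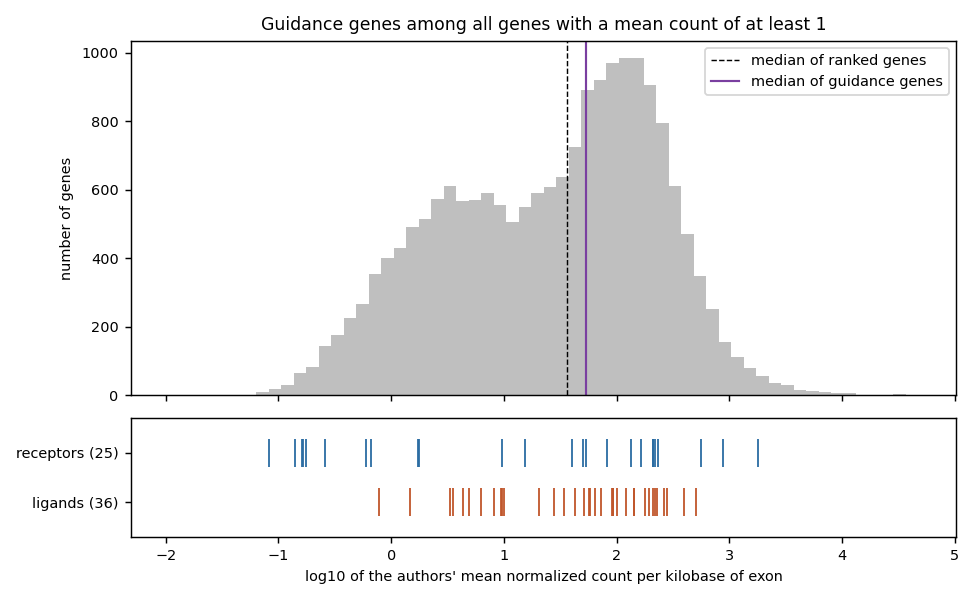
The upper panel is a histogram of the log10 authors' mean normalized count per kilobase of exon for the 18939 ranked genes, with the median of these genes and of the 61 guidance genes as vertical lines. The lower panel marks each of the 36 ligands and 25 receptors, and shows receptors at both ends of the range, with 9 of the 25 under a mean normalized count of 10 against 2 of the 36 ligands.

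Ligands and receptors were spread differently. Of the 36 ligand genes, counting FLRT proteins among them, 34 had a mean normalized count of at least 10. Of the 25 genes of receptor families 16 did, and these include *Unc5cl*, which encodes no netrin receptor and without which it was 16 of 24. Per kilobase of all exons, 3 receptors had over 500 counts, as did 1 ligand, and the lowest genes of the whole set, from *Ephb6* down to *Dcc*, were receptors and *Unc5cl*. With coding length the highest gene was the ligand *Sema5a*, at 3208 against 2647 for *Plxnb2*, and *Sema3a* at 1799 stood above *Epha2* at 1405. With the length of all exons, the 5 highest genes, *Plxnb2*, *Epha2*, *Ephb4*, *Sema5a* and *Sema3c*, made up 49.1% of the summed level of all 61 genes. The 10 highest made up 63.7%. Other lengths give another set, and the shares were not recomputed for them. *Sema3a* ranked 3 and *Ephb4* 7 by undivided mean, and 3 and 9 with coding length.

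**Figure D2:**
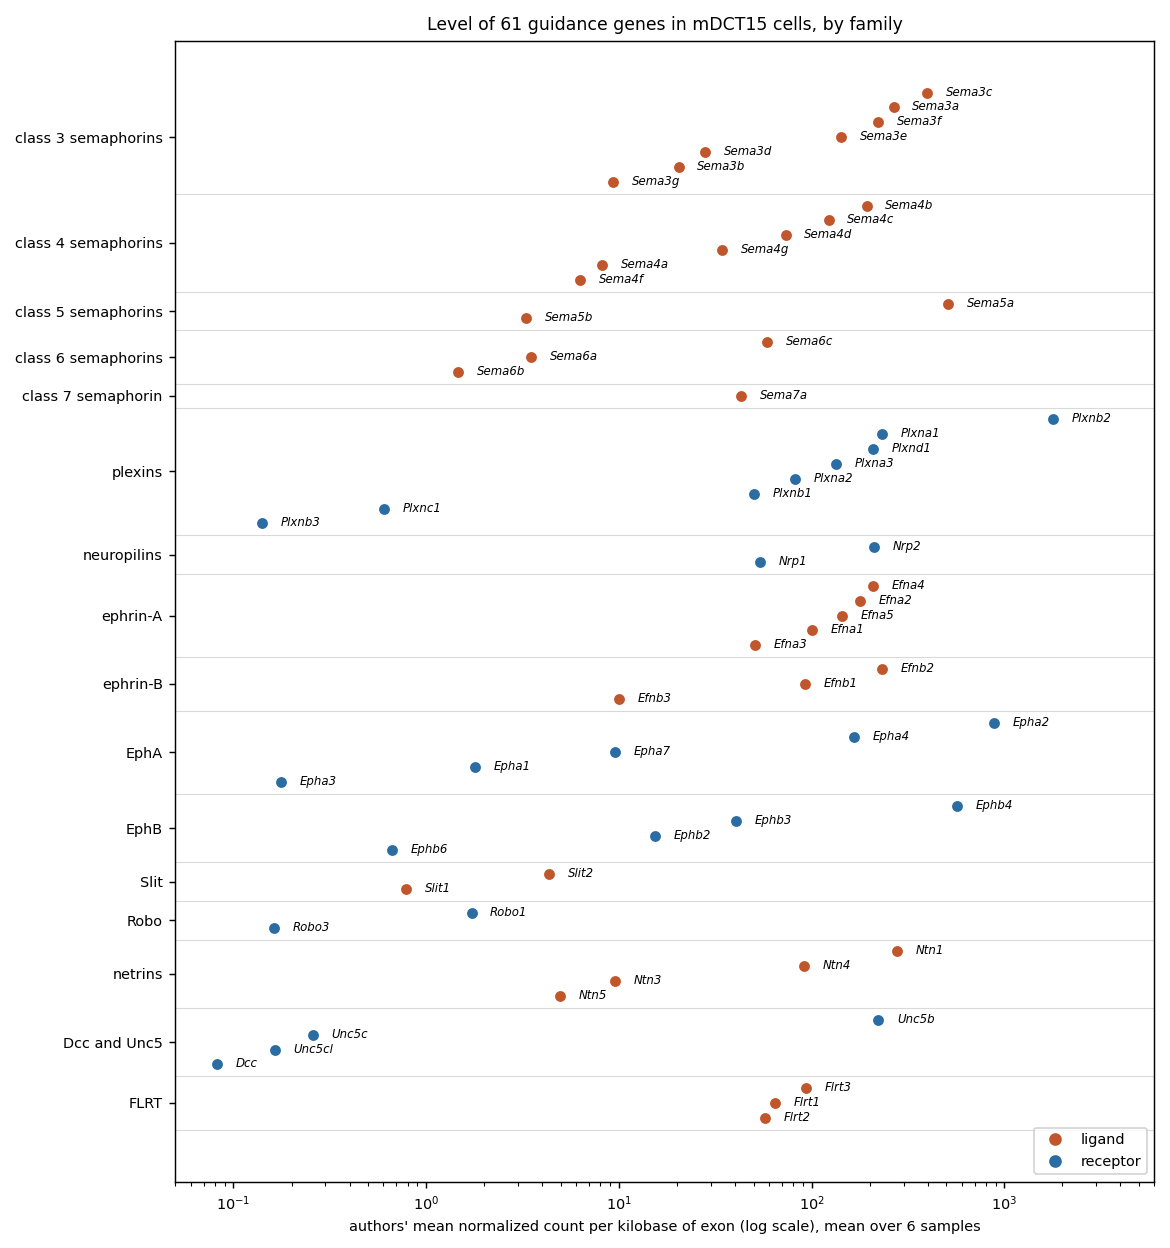
Each point is 1 of the 61 guidance genes, placed by the authors' mean normalized count per kilobase of exon on a log axis and grouped by family, with ligands and receptors in different colours. Within most receptor families a single gene stands above the rest, as *Plxnb2* at 1789 does among the plexins. Several ligand families show the same, as class 5 does with *Sema5a* at 508, while the 5 ephrin-A genes lie between 51.1 and 209.

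Per kilobase of all exons plexins, the semaphorin receptors, had the largest summed level of the 16 families, 29.7% of all guidance transcripts. Semaphorins, taken as a single group instead of by class, held 25.4%. The plexin share was 32.9% without division by length and 27.2% with the longest transcript. It was not computed with coding length, where the semaphorins together stood 2.33-fold above the plexins, so no leading family is named for that length. *Plxnb2* (ENSMUSG00000036606, chromosome 15, minus strand, 89039749 to 89065211, GRCm39) ranked 55 among all 20624 genes by undivided mean, with a mean normalized count of 14630, or 1789 per kilobase. It encodes a class B plexin that binds class 4 semaphorins and is known from kidney development and epithelial repair. The other plexins were far lower. *Plxna1* came next at 233 counts per kilobase, 7.68-fold below *Plxnb2* (4.21-fold with coding length), and *Plxnd1*, a receptor for *Sema3e* known from vessels, followed at 209.

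The 3 class A plexin genes analysed, whose proteins work with neuropilins, were all present. Their levels per kilobase were 233 for *Plxna1*, 133 for *Plxna3* and 82.3 for *Plxna2*. By mean normalized count *Plxna2* (1416) stood above *Plxna3* (1050), so the order of this pair rests on the length of their exons. *Plxnb1*, with a mean of 648, stood 35.8-fold below *Plxnb2* per kilobase. The remaining genes were close to no reads, with a mean normalized count of 0.923 for *Plxnb3* and 5.19 for *Plxnc1*, a receptor of *Sema7a*.

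Neuropilins, the co-receptors that hold class 3 semaphorins and some vascular growth factors, were both present. *Nrp2* had a mean normalized count of 2533 and *Nrp1* one of 821. Per kilobase *Nrp2* stood 3.91-fold above *Nrp1*, at 211 against 53.9. With the longest transcript as the length the levels were 364 and 158, a ratio of 2.30.

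Class 3 semaphorins, the secreted ligands of these receptors, were the largest ligand family, with 12.9% of the summed level. All 7 genes analysed had a mean normalized count of at least 10, and 4 of them one of at least 1000. *Sema3c* (ENSMUSG00000028780, chromosome 5, plus strand, 17779219 to 17935648) reached 397 counts per kilobase from a mean of 3240. *Sema3a*, the prototype repellent of axons, had the larger mean of 4166 but 266 per kilobase. Its annotated exons add up to 15653 bases against 8169 for *Sema3c*, and the order of this pair turned around when the longest transcript was used as the length. *Sema3f*, a ligand that prefers *Nrp2*, had 221 counts per kilobase, and *Sema3e*, which binds *Plxnd1* without a neuropilin, had 142. The lower genes were *Sema3d* at 28.0, *Sema3b* at 20.4 and *Sema3g* at 9.36.

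Class 4 semaphorins are membrane-bound, and several are ligands of class B plexins. *Sema4b* led with 193 counts per kilobase. It was followed by *Sema4c*, a ligand of *Plxnb2*, at 122, *Sema4d*, the ligand of *Plxnb1*, at 73.3, and *Sema4g* at 34.2. *Sema4a* and *Sema4f* were low, with mean normalized counts of 75.1 and 41.9.

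Class 5 semaphorins carry thrombospondin repeats and came almost wholly from 1 gene. *Sema5a* (ENSMUSG00000022231, chromosome 15, plus strand, 32244919 to 32696487) ranked 106 among all genes by undivided mean, with a mean normalized count of 10394 and 508 counts per kilobase. Its relative *Sema5b* had a mean of 25.9, which put *Sema5a* 154-fold higher per kilobase, and 417-fold higher with coding length. Class 6, whose members are transmembrane ligands of class A plexins, was similarly uneven, with *Sema6c* at 58.7 counts per kilobase, *Sema6b* at 1.46, and a mean normalized count of 33.4 for *Sema6a*. *Sema7a*, the membrane-anchored member of class 7, had 43.2 counts per kilobase, and *Plxnc1*, the gene of a receptor for it, had 0.602.

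Added up, the 19 semaphorin genes had 2139 counts per kilobase and the 8 plexin genes 2497, a ratio of 0.857. That order did not hold under other choices. The ratio was 1.10 for undivided means, 1.14 with the longest transcript and 2.33 with coding length. Without *Plxnb2* alone it was 3.02, without *Sema5a* alone 0.653, and without both 2.30.

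Eph receptors, the largest family of receptor tyrosine kinases, were led by 1 gene in each class. *Epha2* (ENSMUSG00000006445, chromosome 4, plus strand, 141028540 to 141056695), an epithelial Eph receptor, showed a mean of 4117 and 879 counts per kilobase. *Ephb4* (ENSMUSG00000029710, chromosome 5, plus strand, 137348274 to 137376931), known as the venous receptor of ephrin-B2, had a mean of 2835 and 564 counts per kilobase. Per kilobase of all exons these genes held 83.2% and 90.9% of the summed level of their classes.

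Below them in the EphA class came *Epha4*, which binds ephrins of both classes, with 165 counts per kilobase, and *Epha7* with 9.55. *Epha1* and *Epha3* were near the floor, with mean normalized counts of 7.03 and 1.66. In the EphB class *Ephb3* had 40.5 and *Ephb2* 15.4 counts per kilobase. *Ephb6*, whose kinase domain is known to be inactive, had a mean normalized count of 5.02.

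Ephrins were spread more evenly than their receptors. All 5 ephrin-A genes, which encode ligands with a lipid anchor, had a mean normalized count of at least 100. Their levels per kilobase ran from 51.1 for *Efna3* through 100.3 for *Efna1*, 144 for *Efna5* and 178 for *Efna2* to 209 for *Efna4*. *Efna4* was 1.17-fold above the next gene, and by mean normalized count *Efna5* (757) was the highest, so no leader of this class can be named.

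Among the transmembrane ephrin-B ligands, *Efnb2*, the partner of *Ephb4*, had a mean normalized count of 1669 and 230 counts per kilobase. *Efnb1*, on chromosome X, had 92.8, and *Efnb3* had 10.1. Both *Ephb4* and *Efnb2* thus led their families in the pooled mean, which cannot show whether they were high in the same cultures or genotype. The 8 ephrin genes added up to 1015 counts per kilobase and the 9 Eph genes to 1677, a ratio of 0.605. Without *Efnb2* and *Epha2* the sums were 784 and 798, a ratio of 0.983, and with coding length the ephrins stood above the receptors at a ratio of 1.66.

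**Figure D3:**
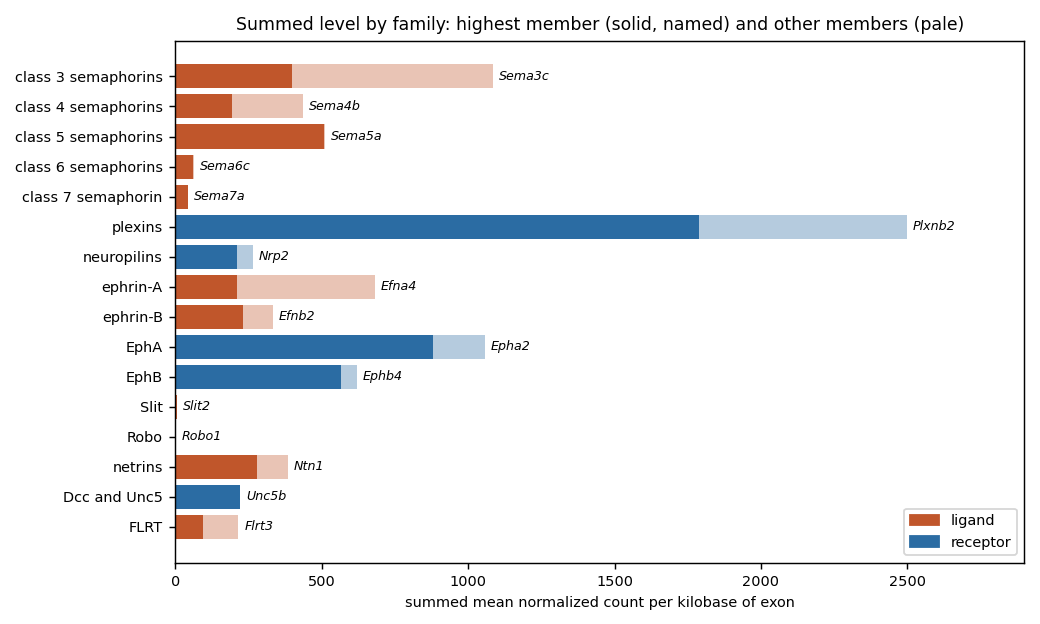
Bars give the summed authors' mean normalized count per kilobase of exon for each family on a linear axis from 0, with the highest member in solid colour and named and the other members pale. Plexins reach 2497 and class 3 semaphorins 1084, whereas the Slit and Robo bars, at 5.11 and 1.88, are barely visible.

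Slits and Robos formed the lowest system. The secreted ligand gene *Slit2*, needed for the restriction of ureteric bud outgrowth in development, had a mean normalized count of 139. Its annotated exons add up to 32191 bases, which gave 4.33 counts per kilobase, and with the longest transcript as the length its level was 3.21-fold higher. *Slit1* had a mean of 7.09. The receptor gene *Robo1* had a mean of 31.2, or 1.72 counts per kilobase, and *Robo3* had 0.162 counts per kilobase. The system held 0.0607% and 0.0223% of the summed guidance level in its ligands and receptors.

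Netrins are secreted relatives of laminins. *Ntn1* (chromosome 11, minus strand, 68100190 to 68291662) reached a mean of 1822 and 278 counts per kilobase. *Ntn4*, a netrin of basement membranes, had 90.9 counts per kilobase, *Ntn3* 9.58 and *Ntn5* 4.93.

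Among the Dcc and Unc5 genes only *Unc5b* had a mean of at least 10, with a mean normalized count of 1393 and 221 counts per kilobase. *Unc5c* had a mean of 4.93 and *Dcc*, the attractive netrin receptor, one of 1.09, the lowest level per kilobase of all 61 genes. *Unc5cl*, which the symbol rule also takes in but which encodes a related protein of inflammatory signalling and no netrin receptor, had a mean of 0.865. Per kilobase *Unc5b* stood 860-fold above *Unc5c*, a ratio that was 465 with the longest transcript and 284 with coding length, and that is imprecise because so few reads lay in *Unc5c*. The netrin receptor neogenin, encoded by *Neo1* and outside the symbol rule, had a mean of 1818 and 157 counts per kilobase.

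FLRT proteins, membrane proteins with leucine-rich repeats that bind *Unc5b* among others, were present in a narrow range. *Flrt3* had 93.8 counts per kilobase, *Flrt1* 64.4 and *Flrt2* 57.1. By mean normalized count the order was *Flrt2* (514), *Flrt3* (457) and *Flrt1* (405), and the 3 genes lie too close for an order without replicate values. Of their latrophilin partners, *Adgrl1* and *Adgrl2* had 232 and 217 counts per kilobase, and *Adgrl3* had a mean normalized count of 0.861.

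Several guidance genes are neighbours in the genome and differed in level. *Efna1*, *Efna3* and *Efna4* lie in a row on chromosome 3, with gaps of 32.8 and 10.4 kb, at 100.3, 51.1 and 209 counts per kilobase. *Sema3b* and *Sema3f* lie 72.2 kb apart on chromosome 9, at 20.4 and 221. On chromosome X, *Plxna3* and *Plxnb3* are separated by 557 kb and stood at 133 and 0.141. On chromosome 5, *Sema3a* lies between *Sema3d* and *Sema3e*, with gaps of 536 and 422 kb, and its level of 266 was above both. Exons of the members were largely their own, with 57 of the 61 genes sharing no exon base with another gene of the same strand.

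A list of 71 partner genes held co-receptors, other ligands and receptors, adhesion molecules and signalling proteins known to work with these families. Of these genes 63 were analysed, 58 of them had a mean normalized count of at least 10, and 35 one of at least 1000. Over all genes 66.5% and 20.9% reached these limits. The list was chosen with earlier results of these data known, so the counts are descriptions. Their median stood at percentile 72.4 of the ranked genes. The 5 highest per kilobase were *Cfl1*, the actin-severing protein cofilin (3331), the integrin gene *Itgb1* (2945), the GTPase gene *Rac1* (1338), the receptor kinase gene *Met*, a known partner of class B plexins (1206), and the GTPase gene *Cdc42* (1063). The 5 analysed partners under a mean of 10 were *Draxin*, *Fes*, *Crmp1*, *Cspg4* and *Adgrl3*.

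The annotation used here holds 73 protein-coding genes whose symbol fits the rule. The other 12 were not analysed here: *Epha5*, *Epha6*, *Epha8*, *Epha10*, *Ephb1*, *Plxna4*, *Robo2*, *Robo4*, *Sema6d*, *Slit3*, *Unc5a* and *Unc5d*. Whether they fell under the authors' minimum count was not tested.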

How the data were processed

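Total RNA of 3 *Pkd1*-/- and 3 wild type samples was depleted of ribosomal RNA and sequenced as paired ends. Reads were trimmed by the authors (Trim Galore 0.4.5), who then mapped them to GRCm39 with STAR 2.7.5a, counted them per gene with HTSeq 0.11.0 at its default settings and ran DESeq2 1.22.0 in R 3.5.3. The paper gives a minimum count per sample and gene for this last step. Means as low as 0.865 remain among the guidance genes, so how the minimum was applied is not clear. The deposited signal used here is the authors' mean normalized count over all samples. The other numeric columns hold the authors' fold change between the genotypes with its error, statistic and p-values. They are the study's own comparison and were not used, so the planned test of the genotypes, which needs counts per sample, was not run. The depth per sample is unknown.

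Exon, transcript and coding lengths and coordinates came from GENCODE M39 on GRCm39, matched by gene identifier for 20122 genes (97.6%) and all 61 guidance genes. The authors counted reads on a different, Ensembl release, so the counted exons and the measured lengths may differ. The effect of this on the levels per kilobase was not tested. The mean was divided by the union of a gene's exons, and percentiles were taken among genes whose mean was not below 1, with the members below 1 placed on the same scale. Ranks, families and the symbol rule were tested on simulated data. By rule the text names the guidance genes at or above 100, with the highest and lowest of each family and those at or under 1, and the 5 highest partners. The remaining members, markers and partners in the text were named after their values were seen. The members and lists were chosen with earlier results of these data known. Python 3.11.15, numpy 2.4.6, pandas 2.3.3 and matplotlib 3.10.9 were used.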

Additional observations from a re-analysis of the deposited data

How the results depend on the processing

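Counts, percentiles, shares, leaders and ratios were recomputed with other lengths, limits and members, and a value was taken as moved when it changed by over 1.5-fold. Of 49 such repeats, 33 stayed within that range and 16 moved, and of 25 repeats of the ratios of ligands to receptors added after seeing the data, 12 stayed and 13 moved. With a limit of 1000 in place of 10, 18 guidance genes remained in the count. Coding length as the divisor leaves out untranslated exons and limits the ranked genes to those with a coding sequence. With it the median percentile was 36.6. It was 39.7 to 59.0 under the other settings, and the 39.7 set all members, also those under 10, against genes of at least 10. Without division by length, the share of the summed level was 14.9% for class 5 semaphorins, 0.205% for class 7, 4.79% for neuropilins, 2.80% for ephrin-A, 8.01% for EphA, 4.74% for EphB, 0.209% for Slit and 0.0463% for Robo. With the longest transcript it was 4.72% for neuropilins and 0.136% for Slit. Without the highest gene of each side, the ratio of ligands to receptors was 2.30 for semaphorins over plexins, 0.983 for ephrins over Eph receptors, 4.87 for Slits over Robos and 310 for netrins over Dcc and Unc5, where *Unc5b* held nearly the whole receptor sum. For all ligands over all receptors it went from 0.806 to 1.13. With coding length the ratio was 2.33 for semaphorins, 1.66 for ephrins, 4.73 for Slits and 1.88 for all ligands. For Slits it was 4.52 without division by length and 4.20 with the longest transcript. Without the highest receptor alone it was 3.02, 1.27, 31.6 and 1127 for semaphorins, ephrins, Slits and netrins and 1.31 for all ligands. Without the highest ligand alone it was 0.418 for Slits and 0.475 for netrins. The highest gene was the same in 13 of 16 families without division by length, in 15 with the longest transcript and in 13 with coding length. The families with another leader were class 3 semaphorins, ephrin-A and FLRT. With the longest transcript, 14 of 61 gene levels moved, and with coding length 56 of 61 did, with a median rise of 3.02-fold and up to 7.68-fold for *Efna5*. Neither length can exceed the union of exons, so a level could only stay or rise. Summing repeated symbols could not change the count, since no symbol was repeated, and the leader of class 7 was fixed because it has a single gene. No paired analysis was possible because the value is pooled over all samples and no test was run. Leaving out a replicate and the count tools were not run for the same reason. Low means limit the ratios of genes under 10.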
